A study of Homo sapiens with 6 samples.

Results

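Immediate early and ETS transcription factors are described here through 10 genes measured in HepG2. HepG2 is an established line from a human liver tumour, given in the labels as hepatocellular carcinoma. The genes were taken by name: ETV4, ETV5, EGR1, FOS, FOSL1, IER2, IER3, IER5, MYC and KLF10. Every probe that the platform annotation gives to one of them was used, which made 15 of the 47323 probes. Of these, 14 passed a filter, a detection p under 0.05 on 3 or more arrays of the 6, and were tested among 20120 such probes, and at least 1 probe of each of the 10 genes was among them. They stand for 10 of the 11542 genes with a tested probe. Cells received DMSO, the solvent, or sorafenib at a labelled dose of 3 mM, each for 24 h, with 3 BeadChip arrays per group. The labels name no other agent, and the cells carry no engineered change that the labels mention. Micromolar doses are usual in culture, so the labelled unit may be wrong, which these files cannot settle. The labels do not say whether replicates were separate cultures, so each p-value reflects array-to-array spread alone, and that spread may be technical.

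Immediate early genes are switched on within minutes of growth factor or stress signals, without new protein synthesis, by factors already bound at their promoters. ERK, the last kinase of the RAS, RAF, MEK and ERK cascade, phosphorylates the ETS factor ELK1 and its relatives, which act with serum response factor, SRF, at CArG boxes. ETV4 and ETV5, ETS factors of the PEA3 group, are longer-lived outputs of the same kinase and are repressed by capicua when ERK is inactive. Sorafenib inhibits RAF kinases and several receptor tyrosine kinases, and RAF inhibitors can raise ERK activity in cells without a mutant RAF.

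All 14 tested probes were higher with sorafenib at an adjusted p under 0.05 and none was lower (limma, Benjamini-Hochberg adjustment over the 20120 probes). Of all tested probes 7.27% were called higher and 9.45% lower. The FOS probe passed the filter only through the sorafenib arrays, so its place in that count is fixed in part by the filter. By gene, read at the probe with the highest mean, the 10 changes ran from 0.49 to 2.33 on the log2 scale with a median of 1.38, or 1.19 with FOS at its lower bound. The median over all 11542 genes was 0.00, and 8.44% of them were called higher and 11.6% lower. The members were named with earlier results of these data known, so the counts describe them and carry no test over the list.

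**Figure D1:**
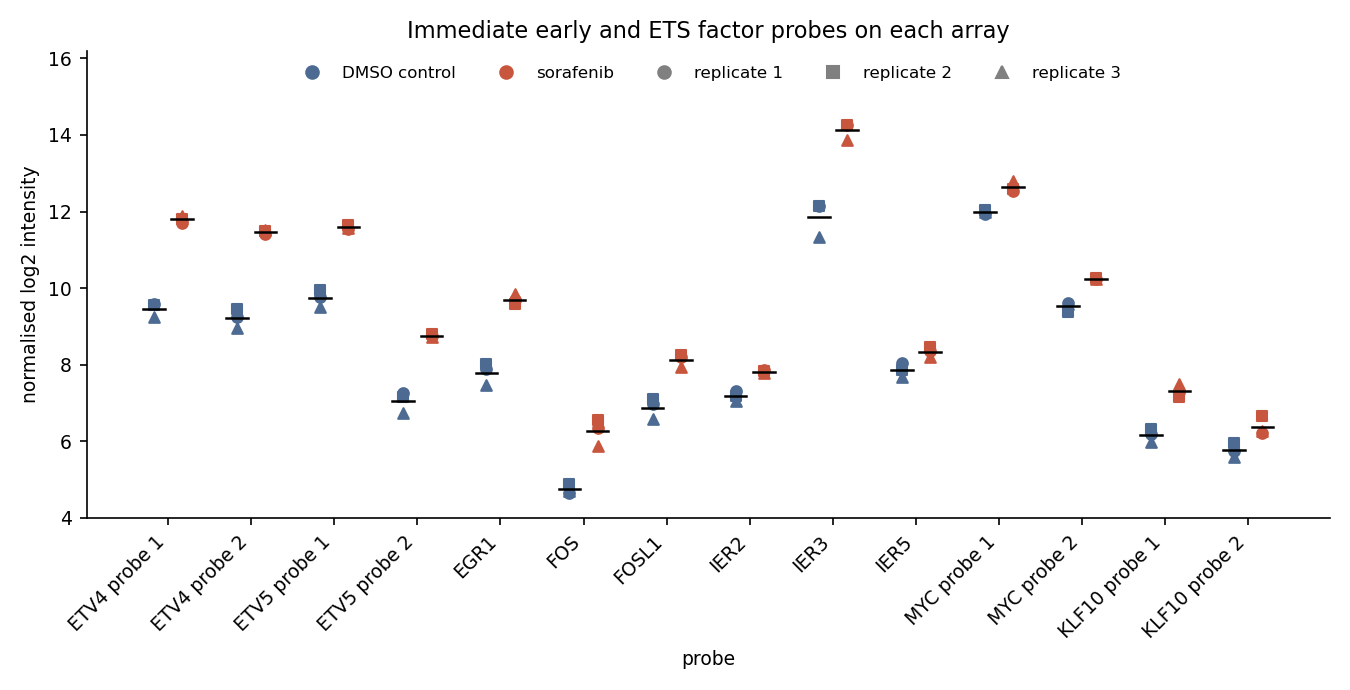
Normalised log2 intensity (vertical axis) of the 14 tested probes on each array, with DMSO control in blue, sorafenib in red, a marker shape for each replicate number and a black bar for each group mean. Probe 1 of a gene is its brighter probe. In every probe the 3 sorafenib points lie above the 3 control points, which for FOS is fixed in part by the filter. Levels of different probes cannot be compared.

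The lowest sorafenib array lay above the highest control array for all 14 probes, an arrangement that 19.2% of all tested probes showed. For FOS, which passed the filter only through the sorafenib arrays, that arrangement is fixed in part by the filter. The gap from the highest control to the lowest sorafenib array was widest for the brighter ETV4 probe, at 2.12, and narrowest for IER5, at 0.17. Control replicate 3 gave the lowest control value in 11 of the 14 probes. It was also the array with the lowest mean intensity, 739 against 832 to 1050 on the other 5. Its part in the results was not tested, but without it the 14 differences were 0.39 to 2.23, and 12 stayed past the threshold, all but IER5 and the dimmer KLF10 probe. The control arrays had the larger SD in 10 of the 14 probes. Over all tested probes, the correlation between arrays was 0.989 to 0.994 where both had the same treatment and 0.977 to 0.986 where they did not. Of 9 hepatocyte markers 8 had a named probe, and each of the 8 was above background on all 6 arrays. Of 11 markers of leukocytes, endothelium and fibroblasts, 7 were above background on no array, among them PTPRC, CD3E, CDH5, VWF and COL1A1. The leukocyte markers LYZ and CD14 were above background on all 6, PECAM1 on 1 and DCN on 2. The summed level of these 11 was 12.73 to 12.90 on the log2 scale in controls and 13.48 to 13.71 with sorafenib. LYZ made up most of it, at 12.59 to 12.78 and 13.40 to 13.64, and rose by 0.82 (limma, adjusted p = 0.00489). The hepatocyte markers summed to 17.50 to 17.70 in controls and 17.35 to 17.57 with sorafenib. Among them TF and APOA1 were called lower (-0.61 and -0.47) and APOB higher (0.53). The part of all these markers in the results was not tested.

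Promoters of members were looked up in a RefSeq table (GRCh38.p14) to see which sites of ERK-linked factors they hold. Of 8 members looked up, the table held 4: EGR1, at chr5:138465229-138465478, FOS, at chr14:75278578-75278827, IER2, at chr19:13150161-13150410, and IER5, at chr1:181088450-181088699, all on the plus strand. The 250 bases before each gene start are shown 5′ to 3′. They are shown to display which motif letters lie next to the start, and elements farther upstream, such as the known serum response element of FOS, lie outside this window. Capitals mark matches to the CArG box of SRF, to the site of cyclic AMP factors (TGACGTCA) or its TGACG part, and to the EGR site (GCGNGGGCG), on either strand.
EGR1: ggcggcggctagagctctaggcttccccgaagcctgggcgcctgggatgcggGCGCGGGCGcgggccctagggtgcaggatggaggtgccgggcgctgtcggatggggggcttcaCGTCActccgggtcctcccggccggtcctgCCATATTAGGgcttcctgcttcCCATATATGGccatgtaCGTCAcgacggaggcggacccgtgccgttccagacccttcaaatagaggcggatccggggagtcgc
FOS: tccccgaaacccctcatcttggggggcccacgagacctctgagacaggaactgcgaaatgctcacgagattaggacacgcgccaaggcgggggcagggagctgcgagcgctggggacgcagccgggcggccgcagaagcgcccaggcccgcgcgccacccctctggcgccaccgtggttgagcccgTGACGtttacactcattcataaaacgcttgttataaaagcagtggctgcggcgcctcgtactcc
IER2: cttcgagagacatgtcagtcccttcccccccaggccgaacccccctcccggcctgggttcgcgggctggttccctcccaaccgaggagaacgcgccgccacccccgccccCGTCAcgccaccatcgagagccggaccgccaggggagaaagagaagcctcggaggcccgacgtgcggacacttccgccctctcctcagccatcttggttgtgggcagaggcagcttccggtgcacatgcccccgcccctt
IER5: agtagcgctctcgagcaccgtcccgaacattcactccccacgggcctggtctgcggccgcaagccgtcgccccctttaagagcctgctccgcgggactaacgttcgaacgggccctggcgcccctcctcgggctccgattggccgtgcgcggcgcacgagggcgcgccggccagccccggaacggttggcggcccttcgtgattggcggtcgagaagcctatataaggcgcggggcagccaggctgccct
EGR1 held 2 CArG boxes, from 105 to 96 and from 83 to 74 bases before the start, a motif present in 1.14% of 27305 promoters of this length. It also held 2 TGACG matches, against a share of 21.7% of promoters with at least 1, and 1 EGR site, against 8.25%. FOS held 1 TGACG match, from 64 to 60 bases before the start, and IER2 held 1, from 140 to 136. IER5 held none of these. The full ETS motif searched (CCGGAAGT, in 3.64% of promoters), AP-1 (TGANTCA, 6.6%), the full cyclic AMP site (1.77%), the E-box (CACGTG, 6.49%) and the capicua motifs (TGAATGAA, 1.42%, and TGAATGGA, 0.875%) had no match in the 4. The ETS core GGAA, present in 92.8% of promoters, had 4 matches in EGR1, 4 in IER2 and 1 each in FOS and IER5. In EGR1, 1 of them overlaps the second CArG box by 1 base. A match is a description of letters, and no match says only that these letters are not in this window.

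The PEA3 group factors ETV4 and ETV5, which drive genes of growth and invasion, were each measured by 2 probes. The brighter ETV4 probe stood at 9.59, 9.55 and 9.24 on the log2 scale on control arrays 1 to 3 and at 11.71, 11.80 and 11.87 on the sorafenib arrays. Before normalisation its intensities were 565 to 962 and 3266 to 4453. The groups are far apart, and the probe rose by 2.33 ± 0.12 (moderated SE, n = 3 per group; limma, adjusted p = 0.00029), or 5.04-fold. Among the 20120 tested probes, 15 rose by more. The other ETV4 probe went from 9.25, 9.44 and 8.96 to 11.43, 11.49 and 11.51, a rise of 2.26 ± 0.13 (adjusted p = 0.000445).

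For ETV5 the brighter probe stood at 9.78, 9.95 and 9.50 in controls and at 11.54, 11.65 and 11.56 with sorafenib. It rose by 1.84 ± 0.13 (limma, adjusted p = 0.000673), with no overlap between the groups. The dimmer ETV5 probe, at 7.26, 7.15 and 6.73 and then 8.75, 8.79 and 8.73, rose by 1.71 ± 0.14 (adjusted p = 0.00136). Without background correction the change of the dimmer probe was 1.13, and that of the brighter one was 1.71. Here and below, that setting still added 16 to each intensity.

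EGR1, a zinc finger factor and a classic early readout of ERK through the CArG boxes shown above, had 1 probe. Its levels were 7.88, 8.02 and 7.48 in controls and 9.68, 9.59 and 9.84 with sorafenib. No control array came within 1.57 of a sorafenib array. The rise was 1.91 ± 0.15 (limma, adjusted p = 0.00125), or 3.75-fold, and it was 1.76 to 2.02 when any array was left out.

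FOS and FOSL1 encode partners of JUN proteins in the AP-1 factor, FOS being made early and briefly and FOSL1, or FRA-1, accumulating under sustained ERK signalling. On the control arrays the FOS probe never exceeded background, with detection p-values of 0.892, 0.579 and 0.853, and was above it on all 3 sorafenib arrays, at 0.0026, 0.0013 and 0.0234. Intensities were 95.1, 113 and 89.1 in controls and 186, 215 and 154 with sorafenib. The fitted log2 difference was 1.52 (limma, adjusted p = 0.00409), on control values at background and with the filter passed only through the sorafenib arrays. Read as a lower bound on the background-corrected values, which that p does not test, FOS was at least 1.54-fold higher with sorafenib. For this bound each control array took the lowest level of any detected probe, or the FOS level itself where that was higher. The bound has no SE, and none was computed on values without background correction. The log2 means of FOS were 4.74 and 6.26. Without background correction the log2 difference was 0.73.

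FOSL1 stood at 6.96, 7.11 and 6.58 in controls, above background on each, and at 8.20, 8.25 and 7.94 with sorafenib. Replicate 3 was the lowest of both groups. The rise was 1.25 ± 0.16 (limma, adjusted p = 0.00515), or 2.37-fold, and 0.75 without background correction.

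**Figure D2:**
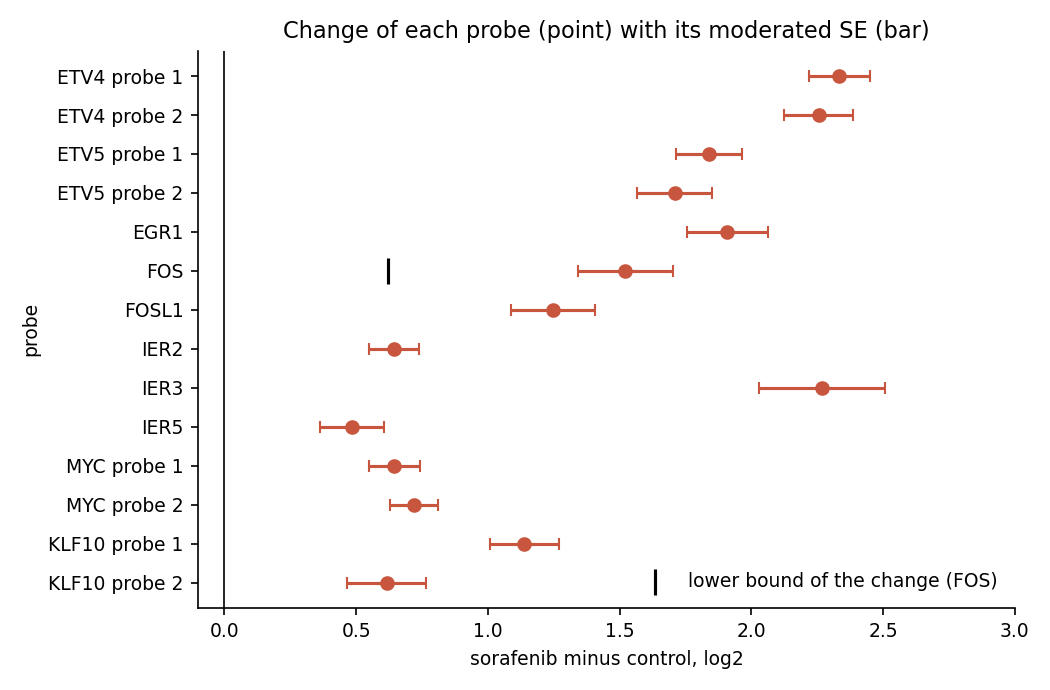
Sorafenib minus control on the log2 scale (horizontal axis) for the 14 tested probes (vertical axis), as points with bars of 1 moderated SE, n = 3 arrays per group. The changes run from 0.49 for IER5 to 2.33 for ETV4. The black tick is the lower bound of 0.62, on background-corrected values, for FOS, whose probe did not exceed background in controls.

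Of the IER genes, which share a name for their early induction rather than a common function, IER3 changed by the most. IER3, or IEX-1, is a target and substrate of ERK with a role in cell survival. Its levels were 12.14, 12.13 and 11.33 in controls and 14.26, 14.26 and 13.88 with sorafenib. Control replicate 3 lay below the other control arrays, and the lowest sorafenib array was still 1.74 above the highest control array. IER3 rose by 2.27 ± 0.24 (limma, adjusted p = 0.00289), or 4.81-fold, and by 1.99 without control replicate 3.

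IER2, a nuclear protein and regulator of transcription, stood at 7.31, 7.17 and 7.05 in controls and at 7.87, 7.83 and 7.77 with sorafenib. The rise of 0.64 ± 0.09 (limma, adjusted p = 0.00787) was 1.56-fold, and it was 0.39 without background correction. IER5, a relative of IER2 known to act with heat shock factor, had levels of 8.04, 7.86 and 7.67 in controls and 8.35, 8.46 and 8.21 with sorafenib. The groups did not overlap, but by a narrow margin, and the rise was 0.49 ± 0.12 (adjusted p = 0.039). Leaving out any array other than control replicate 1 ended that call, with adjusted p-values of 0.0536 to 0.122, as did scaling arrays to a common median (adjusted p = 0.137) and testing all 47323 probes (adjusted p = 0.0699).

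MYC, a factor that drives growth and ribosome production, was measured by 2 probes. The brighter one stood at 11.94, 12.05 and 11.99 in controls and at 12.54, 12.58 and 12.80 with sorafenib. It rose by 0.64 ± 0.10 (limma, adjusted p = 0.00825), or 1.56-fold. The other went from 9.62, 9.38 and 9.60 to 10.25, 10.26 and 10.24 and rose by 0.72 ± 0.09 (adjusted p = 0.00515). In contrast to most members, control replicate 3 was not the lowest control array for either probe.

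KLF10, a repressor of the Kruppel-like family also known as TIEG1 for its early induction by TGF-beta, had 3 probes. The brightest stood at 6.19, 6.32 and 5.99 in controls and at 7.28, 7.14 and 7.50 with sorafenib, and rose by 1.14 ± 0.13 (limma, adjusted p = 0.00367). The next, annotated to another transcript, was above background on 2 of the 3 control arrays. It went from 5.75, 5.95 and 5.59 to 6.22, 6.66 and 6.27, a rise of 0.62 ± 0.15 (adjusted p = 0.0364). The remaining probe was above background on none of the 6 arrays and was not tested, with levels of 4.70 to 4.91 in controls and 5.16 to 5.41 with sorafenib. Without background correction, but with 16 added to each intensity, the changes of the 2 tested probes were 0.54 and 0.24. The second was then no longer called (limma, adjusted p = 0.0518). On the authors' deposited log2 values, which hold no added offset, the second was 0.26 and called (limma, adjusted p = 0.0475). The call of the second probe was also lost without any one of the 6 arrays (adjusted p = 0.0555 to 0.102) and with all 47323 probes tested (adjusted p = 0.0633).

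In the 4 genes with 2 tested probes, the probes of a gene were compared by their difference on each array. The rises differed by 0.08 for ETV4, 0.13 for ETV5, 0.08 for MYC and 0.52 for KLF10. An exact two-sided permutation test over the 6 arrays gave p = 0.4, 0.2, 0.5 and 0.1, where 0.1 is the smallest p that 3 arrays against 3 allow, and adjusted p = 0.5, 0.4, 0.5 and 0.4 over the 4 pairs. This test could not have reached 0.05 for any pair. Only the KLF10 pair is annotated to different transcripts.

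Related genes were read at their brightest tested probe. For each list that follows, the shares over all genes were 8.44% higher and 11.6% lower, and no list count was tested. Of 16 further ETS genes tested, 2 rose and 3 fell, with a median of -0.05, counts near the shares of 8.44% and 11.6% over all genes. Under the replicate block 3 rose and 2 fell. ETS2, an effector of RAS signalling, rose by 0.89 ± 0.09 (limma, adjusted p = 0.00236), and ELK4, a partner of SRF, by 0.62. Dimmer ELK4 probes, at 0.47 and 0.23, were not called. ELF3, an epithelial factor, fell by 0.75 (adjusted p = 0.00244), or by 0.36 without background correction. SPI1, or PU.1, passed the filter only through the control arrays, being above background on no sorafenib array. Its fitted difference was -1.11 (limma, adjusted p = 0.00501). With sorafenib arrays set no lower than the lowest detected probe, the fall was 1.71-fold, which that p does not test. That figure was computed from the background-corrected values and is no minimum, as without the correction the log2 difference of SPI1 was -0.43. ELF1 also fell, by 0.34 (adjusted p = 0.0495), and is named after its value was seen. Its call was lost in 9 of 17 other settings, among them the replicate block (adjusted p = 0.061) and the omission of any one array. The repressor ERF, whose activity ERK controls by phosphorylation, differed by -0.02 ± 0.20 and ELK1 by 0.25 ± 0.12, neither past the threshold. ETV1, the remaining PEA3 gene, had no probe above background on 3 arrays.

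Of 11 genes that control ETS factors or responses to ERK, 1 rose and none fell (2 were lower at an unadjusted p under 0.05 in limma). Over all genes 8.44% were called higher and 11.6% lower. The 1 that rose was TRIB1, a scaffold of the COP1 ubiquitin ligase. It went from 11.23 to 11.33 in controls to 12.20 to 12.45 with sorafenib, a rise of 1.05 ± 0.09 (limma, adjusted p = 0.00159). Capicua, CIC, differed by -0.30 ± 0.12 (adjusted p = 0.148), with its 3 sorafenib arrays below its 3 control arrays. Dimmer probes of DDB1 (0.39 and 0.69) and DET1 (0.40) were called higher, while their brightest probes, at -0.01 and 0.21, were not. No dimmer probe of this list was called lower.

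Of 11 further AP-1 and small MAF genes, 2 rose and 2 fell, beside shares of 8.44% and 11.6% over all genes. MAFF, a small MAF factor, rose by 1.88 ± 0.26 (limma, adjusted p = 0.00636), its probe being detected on 2 of 3 control arrays, and by 0.95 without background correction. The other tested MAFF probe differed by 0.81 and was not called. MAFG rose by 0.59 (adjusted p = 0.0346, or 0.0558 under the replicate block), and ATF3, a stress-induced factor, fell by 0.46 (adjusted p = 0.049). The MAFG call was lost in 8 of 17 other settings and that of ATF3 in 9, and without background correction ATF3 was at -0.30. JUND, named after its value was seen, fell by 0.38 (adjusted p = 0.0182), a call lost in 6 of them, 5 of which leave out a single array. JUN and JUNB, the usual partners of FOS, differed by -0.16 ± 0.13 (adjusted p = 0.44) and 0.00 ± 0.17 (adjusted p = 0.995). The direction of JUNB turned without control replicate 1, sorafenib replicate 2 or sorafenib replicate 3. Whether FOS and FOSL1 changed by more than JUN and JUNB was not tested.

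Among 8 tested genes around EGR1 and SRF, 3 rose, 4 under the replicate block, and none fell, also at an unadjusted p under 0.05 in limma. The EGR1 corepressors NAB2 and NAB1 rose by 0.50 ± 0.09 and 0.46 ± 0.09 (limma, adjusted p = 0.0131 and 0.0206), ELK4 is given above, and SRF differed by 0.05 ± 0.10 (adjusted p = 0.75), with its sign turned without control replicate 1. The NAB1 call was lost in 5 of 17 other settings and that of NAB2 in 2, and without background correction NAB1 was at 0.30. Probes of EGR3 and EGR4 did not pass the filter. Of 19 other immediate early genes, 7 rose and 1 fell, with a median of 0.36, and under the replicate block 9 rose and 2 fell. The matricellular protein genes CCN2 and CCN1 rose by 1.64 ± 0.10 and 0.75 ± 0.19 (limma, adjusted p = 0.00051 and 0.0385). The kinase gene PLK3 rose by 0.87 ± 0.14 (adjusted p = 0.0103), or by 0.34 without background correction. Its probe was above background on 2 of 3 control arrays. BTG1, an antiproliferative gene, fell by 0.48 ± 0.11 (adjusted p = 0.0276). Over the 17 alternative settings the count that rose was between 2 and 10, and the calls of CCN1 and BTG1 were each lost in 6 of them. NR4A1, NR4A2 and NR4A3, orphan nuclear receptors of the same class, did not pass the filter. None of 8 other KLF genes passed the threshold in limma, with 1 higher and 2 lower at an unadjusted p under 0.05 and 1 called higher under the replicate block. KLF6 was at 0.66 ± 0.19 (adjusted p = 0.0593).

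**Figure D3:**
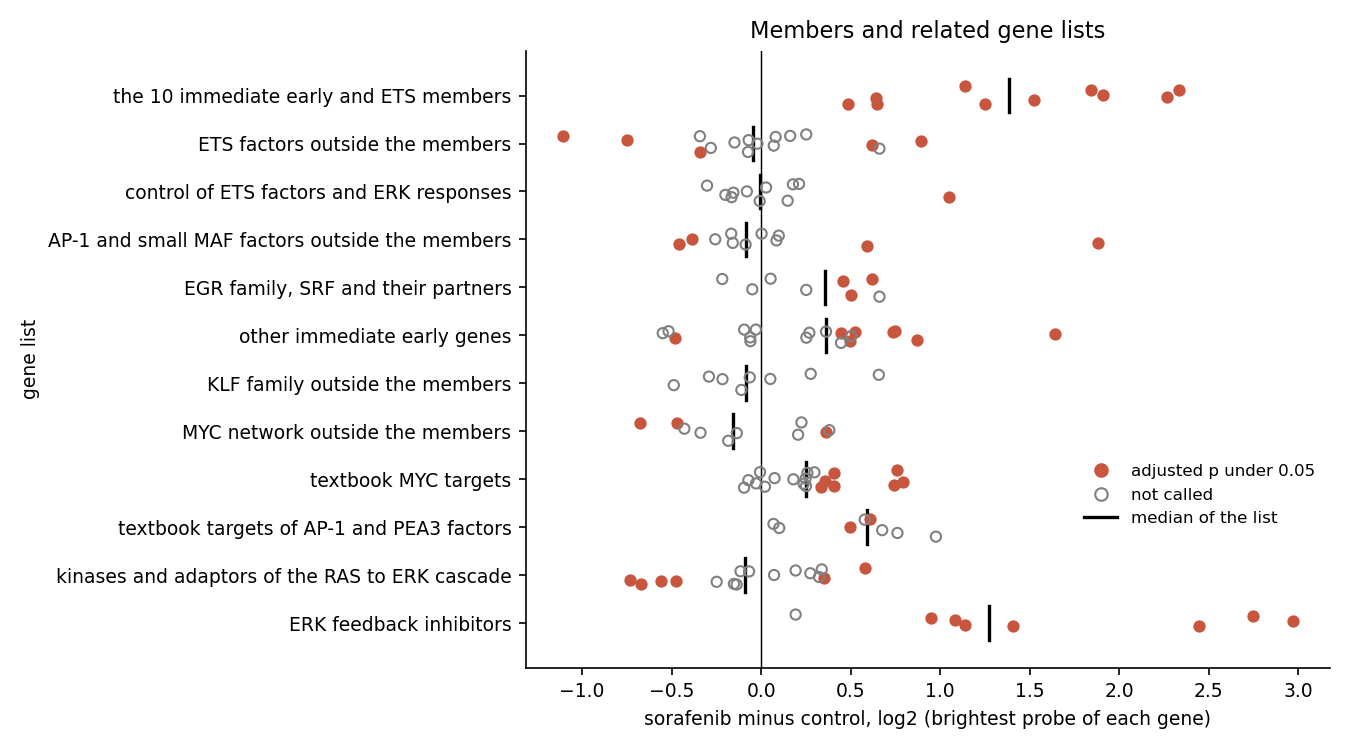
Sorafenib minus control on the log2 scale (horizontal axis) for the 10 members and 11 lists of related genes, with 1 point per gene at its brightest tested probe, filled where the adjusted p was under 0.05, and a black bar at each list's median. The members lie between 0.49 and 2.33 with a median of 1.38, and the other ETS genes lie on both sides of 0.

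Of 10 tested partners and rivals of MYC, 1 rose and 2 fell, beside shares of 8.44% and 11.6% over all genes. MLX rose by 0.36 ± 0.09 (limma, adjusted p = 0.0358). The MAX-binding antagonists MXD4 and MXD1 fell by 0.67 ± 0.09 (adjusted p = 0.0064) and by 0.47 ± 0.10 (adjusted p = 0.0277, or 0.0513 under the replicate block). The calls of MXD1 and MLX were lost in 8 and 7 of 17 other settings. MAX itself differed by 0.38 ± 0.12 (adjusted p = 0.0718). MAX was called higher where a detection p under 0.01 on all 6 arrays was required (limma, adjusted p = 0.0437). With 1 probe per gene it was also called (limma, adjusted p = 0.0497). Of 19 textbook targets of MYC, 7 rose and none fell, also at an unadjusted p under 0.05 in limma, with a median of 0.25. They included the spermidine synthase gene SRM, by 0.79 ± 0.08 (adjusted p = 0.00256), and the nucleolar genes NOP16, by 0.76 ± 0.08, and NOLC1, by 0.74 ± 0.09. The count was 3 without any one of the 6 arrays and 3 to 10 under the other settings. Of 8 tested targets of AP-1 and PEA3 factors, 2 rose and none fell, also at an unadjusted p under 0.05 in limma, where 4 were higher. They were PLAUR, the urokinase receptor, by 0.61 ± 0.12 (adjusted p = 0.021), and the chromatin gene HMGA1 by 0.50 ± 0.11 (adjusted p = 0.0238). Dimmer PLAUR probes were at 0.49, not called, and 1.31, called, and a dimmer HMGA1 probe was at 0.41, not called. The count of these targets that rose was between 0 and 5 over the 17 settings, 5 being under the replicate block. The calls of HMGA1 and PLAUR were lost in 5 and 4 of them, PLAUR was at 0.36 without background correction, and MMP1, MMP7, MMP9 and MMP14 did not pass the filter.

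Upstream, of 16 genes of the RAS to ERK cascade, 2 rose and 4 fell, beside shares of 8.44% and 11.6% over all genes. The adaptor SHC1 rose by 0.58 ± 0.09 (limma, adjusted p = 0.00852), while the scaffold KSR1 fell by 0.73 ± 0.13 (adjusted p = 0.0155) and MAPK3, which encodes ERK1, by 0.67 ± 0.10 (adjusted p = 0.00797). The KSR1 call was lost on leaving out any of 3 arrays, and without background correction KSR1 was at -0.32. A dimmer SHC1 probe, at 0.44, was not called. Of 8 tested feedback inhibitors of ERK signalling, 7 rose and none fell, also at an unadjusted p under 0.05, with a median of 1.27. The largest rises were SPRY4 at 2.97 ± 0.23, DUSP6 at 2.75 ± 0.21 and DUSP5 at 2.45 ± 0.53 (adjusted p = 0.00115, 0.00115 and 0.0254). The DUSP5 call was lost in 5 of the 17 settings.

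Over the 6 arrays, the genes whose pattern was most like the mean of the 10 members were HEY1, a Notch target, with a Pearson correlation of 0.9996, then DUSP6 and MRPL3, a mitochondrial ribosomal protein gene, both at 0.999, SRARP at 0.999 and CEMIP at 0.998. The 6 points fall into 2 groups of 3, so such values mainly follow the difference between groups: 533 of 11531 genes reached 0.95. The 5 genes rose by 2.63, 2.75, 0.35, 1.59 and 1.55 on the log2 scale.

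**Figure D4:**
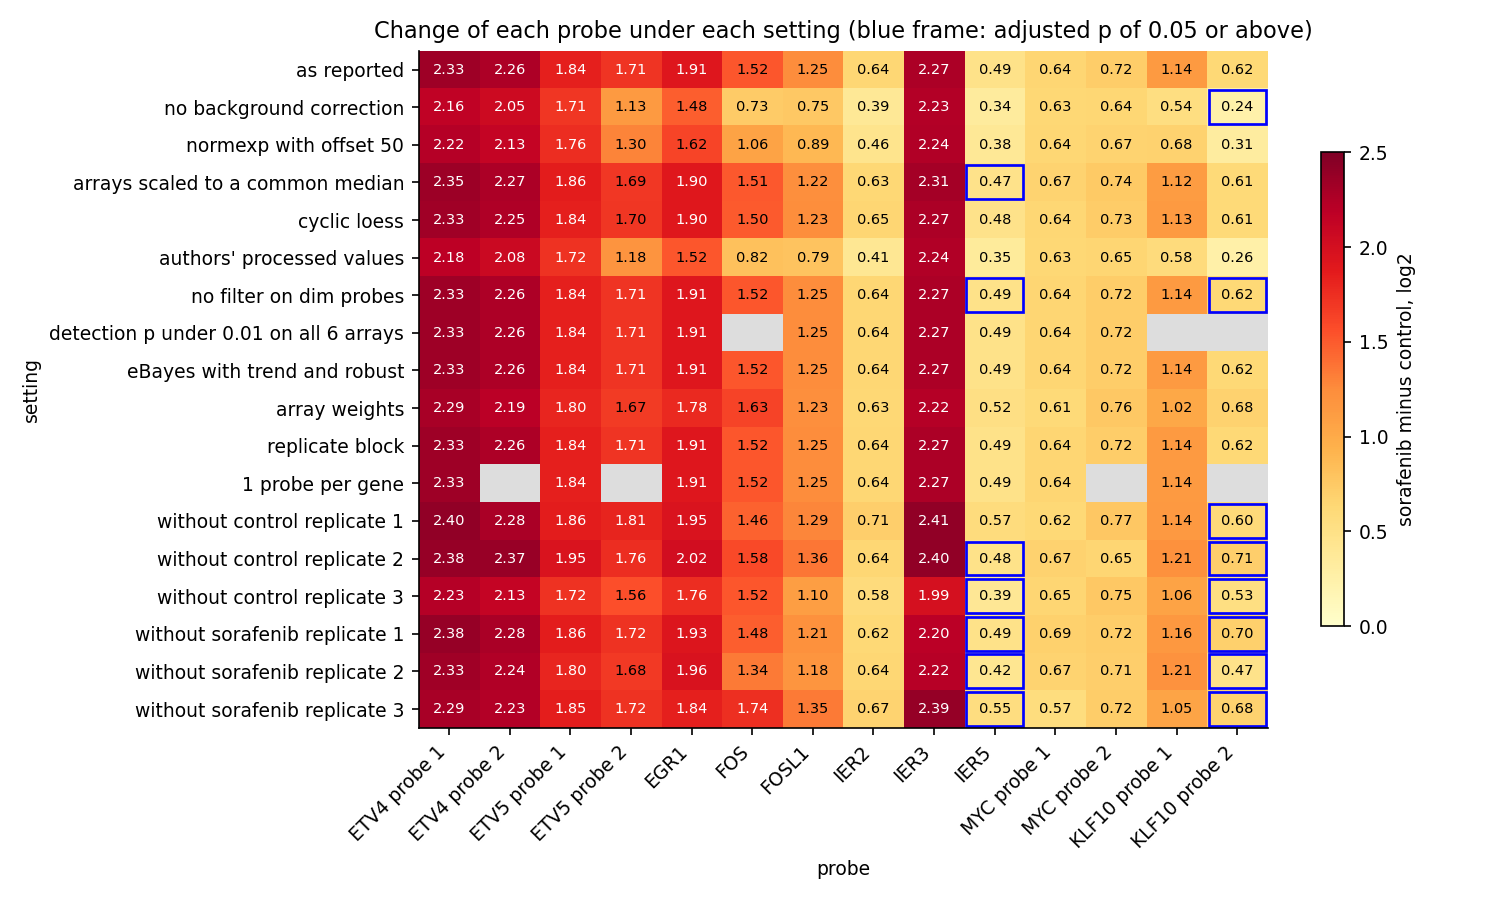
Sorafenib minus control on the log2 scale (colour and number) for the 14 tested probes (columns) as reported and under 17 other settings (rows). Grey cells had no value, and a blue frame marks an adjusted p of 0.05 or above. Of 231 values under the other settings none is below 0, and 15, all of IER5 or the dimmer KLF10 probe, are not called. The FOS probe passed the main filter only through the sorafenib arrays.

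Dimmer probes depended most on how background and the added offset were handled. A fitted rise of at least 1 was seen in 9 member probes, or 8 with FOS at its bound, and in 0.736% of all tested probes. Of these, the brighter ETV4 probe gave 2.16 without background correction, IER3 2.23 and the brighter ETV5 probe 1.71. FOSL1, at 1.25, was 0.79 on the authors' deposited log2 values, FOS 0.82, IER2 0.41 and the 2 KLF10 probes 0.58 and 0.26. With normexp at an offset of 50, which here also used no negative controls, the 2 KLF10 probes gave 0.68 and 0.31.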

How the data were processed

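Expression was measured on Illumina BeadChips after biotin labelling of cRNA (per the labels' protocols). The authors deposited an intensity for each of 47323 probes and 6 arrays, unnormalized, and per the file headers a detection p-value beside each. The processed table that the authors deposited holds log2 values, which equal quantile-normalized log2 intensities within 5e-07. Groups and replicate numbers came from sample titles.

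Here limma's neqc was run on the intensities: normexp background correction whose negative controls were estimated from detection p-values, an offset of 16, quantile normalization and log2. Probes with detection p under 0.05 on at least 3 arrays were kept. The setting without background correction added the same 16 to each intensity before quantile normalization and log2. The setting with normexp at an offset of 50 used no negative controls, so its background model differed as well as its offset. Probes were named from the platform annotation (1 symbol for 30113 probes, several for 8, none for 17202). The 2 groups were tested with lmFit and eBayes in limma (two-sided), p-values being adjusted by Benjamini-Hochberg across the 20120 kept probes, on 3 arrays per group, whose number limits precision. A gene's brightest kept probe stood for it in gene counts. The members and lists were chosen with earlier results of these data known. Genes outside the members were named by a rule: the 3 largest called changes of each list, 1 in the opposite direction, and CIC, ERF, JUN, JUNB, SRF, ELK1, MAX and DUSP6. Genes named outside it are marked or are given only as failing the filter or by value.

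Same-numbered arrays deviated together from their group means (correlations of 0.273, 0.237 and 0.315, each above 0.1). A shared number was therefore treated as a pair, but only in an alternative setting, called the replicate block. The labels give no basis for pairing beyond the number. The planned fit had no block. It gave every limma SE, p-value and call in the text, except where another setting is named. The fit was tested on simulated data. R 4.3.3, limma 3.58.1, Python 3.11.15 and matplotlib 3.10.9 were used.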

Additional observations from a re-analysis of the deposited data

How the results depend on the processing

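Under 17 alternatives, 216 of 231 member probe values were called higher and none was below 0. These counts include FOS, whose probe passed the main filter only through the sorafenib arrays, so its part in them is fixed in part by that filter. With the replicate number as a block all 14 probes were called, and among the named genes the paired fit ended the calls of ELF1, MAFG and MXD1. Leaving out 1 array gave 12 to 13 member probes called, 9 to 10 member genes called, and a median of 1.28 to 1.54. The median was 0.74 without background correction and 0.81 on the authors' values. It was 0.97 with normexp at an offset of 50 and no negative controls.

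IER5 lost its call with median scaling (0.47), with no filter (0.49) and without single arrays (0.39 to 0.57 over the 6). The dimmer KLF10 probe lost it without background correction (0.24), with no filter (0.62) and without single arrays (0.47 to 0.71). The strict filter left no value for FOS and both KLF10 probes, and 1 probe per gene left none for the 4 dimmer probes. The calls of 14 other named genes were lost in 2 to 9 settings each. Of all probes, 3364 passed the threshold, 1853 with median scaling and 1492 to 2311 without single arrays. Uncalled values turned sign for ERF with array weights (0.042), and without single arrays for ERF (-0.17 to 0.18), JUNB (-0.16 to 0.12) and SRF (-0.00099 to 0.13). The causes were not tested. The small number of arrays and, for FOS and KLF10, signal near background limit the precision.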
